A study of Mus musculus with 9 samples.

Results

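The Cyp4a genes encode cytochrome P450 enzymes that hydroxylate fatty acids at the omega carbon, and the members described here are Cyp4a10, Cyp4a12a, Cyp4a12b, Cyp4a14, Cyp4a31, and Cyp4a32. They come from a list of these 6 names, each kept because its value was above 0 in at least 1 liver, and they are 6 of the 23183 gene symbols in the tables. All 6 were above 0 in all 9 livers and passed the minimum level of the test in all 3 comparisons.

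The livers came from male mice of the inbred strain C57BL/6J at postnatal day 100, with 1 library per mouse and 3 mice per group. The ND group (mice 6, 7, and 9) ate a normal diet with 14% fat for 10 weeks. The HFD group (mice 1, 2, and 3) ate a high-fat diet with 60% fat for 10 weeks. The PRF 50 group (mice 3, 9, and 10) ate the same 60% fat diet for 10 weeks and was given, by mouth in the last 5 weeks, 50 mg/kg per day of PRF, a polymethoxyflavone-rich fraction from the leaf of Jinkyool (Citrus sunki). The livers of all 3 groups were taken after a fast. The mouse numbers name animals within a group and pair none between groups. The values are log2(FPKM + 1), where FPKM counts fragments per kilobase of transcript after scaling to the size of the library, so levels can be compared between genes as well as between mice.

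Omega-hydroxylation by CYP4A enzymes is the opening step of omega-oxidation. Alcohol and aldehyde dehydrogenases then turn the hydroxylated fatty acid into a dicarboxylic acid, which peroxisomes shorten by beta-oxidation. In mouse liver, Cyp4a10 and Cyp4a14 are classic target genes of PPARα, the nuclear receptor that senses fatty acids and rises in activity during fasting. Cyp4a12a and Cyp4a12b are known instead for their predominance in males, which depends on androgen and on the pulses of growth hormone in males. Much less is known of Cyp4a31 and Cyp4a32.

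The members lie together in a cluster on chromosome 4 (GRCm38, chr4:115299046-115621602), which spans 323 kb and holds 13 annotated genes, 7 of them protein-coding. In genomic order they are Cyp4a12a, Cyp4a12b, Cyp4a14, Cyp4a10, Cyp4a31, and Cyp4a32, and only Cyp4a14 (ENSMUSG00000028715.2) is on the minus strand. Their coding sequences, from 1524 to 1530 bases long, fall into 3 sets. Cyp4a12a and Cyp4a12b were identical at 98.5% of coding bases, with 23 differences. Cyp4a10 was identical to Cyp4a32 at 97.2% and to Cyp4a31 at 96.6% of coding bases. Cyp4a14 stood apart, with 75.6% to 76.5% identity to each of the others. Translated, Cyp4a12a and Cyp4a12b differed at 11 of 508 residues, and Cyp4a10 and Cyp4a32 at 19 of 509.

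**Figure D1:**
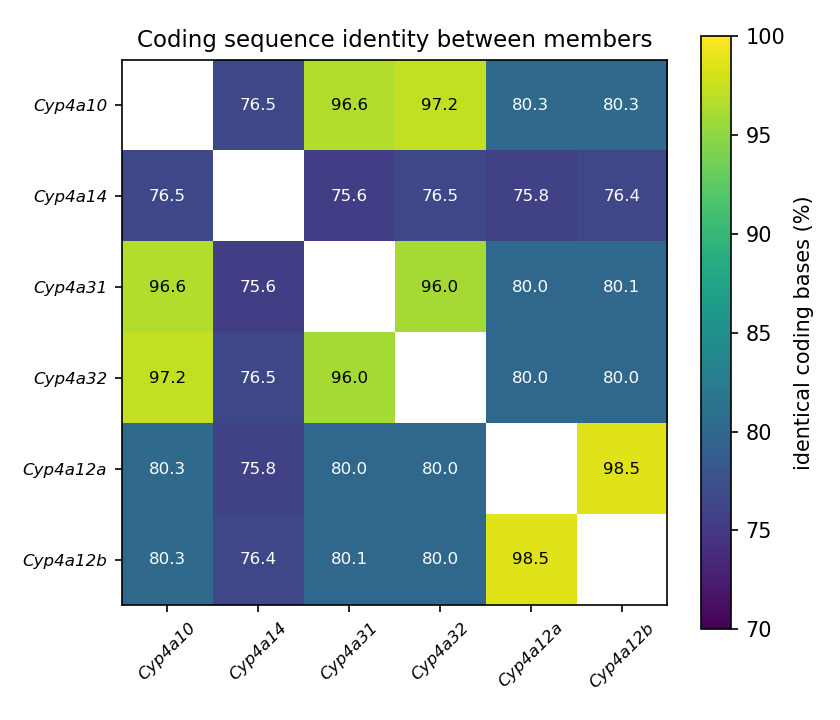
Each cell gives the percentage of identical coding bases between the members named on its row and its column, from a global alignment of the coding sequences. Cyp4a12a with Cyp4a12b (98.5%) and Cyp4a10 with Cyp4a31 and Cyp4a32 (96.6% and 97.2%) form the near-identical sets.

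The 3 sets can be read in the 60 coding bases around the signature that holds the cysteine ligand of the heme iron, the catalytic centre of every P450. These bases cross the junction of exons 11 and 12, so the genomic interval of each includes an intron. They lie at chr4:115529487-115532558 (plus strand) for Cyp4a10, at chr4:115328971-115331861 (plus strand) for Cyp4a12a, and at chr4:115487284-115489820 (minus strand) for Cyp4a14. Capitals mark the bases that differ from Cyp4a10, 3 in Cyp4a12a and 9 in Cyp4a14.
Cyp4a10: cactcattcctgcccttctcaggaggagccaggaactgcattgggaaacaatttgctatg
Cyp4a12a: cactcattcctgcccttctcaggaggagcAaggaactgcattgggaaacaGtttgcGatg
Cyp4a14: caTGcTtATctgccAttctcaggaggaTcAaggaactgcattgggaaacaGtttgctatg
In this stretch Cyp4a31 and Cyp4a32 have 0 differences from Cyp4a10, and Cyp4a12b has 0 from Cyp4a12a.

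Such similarity bears on how far the values of the members are separate measurements. Of the 100-base windows of the Cyp4a12a transcript, 35.8% occur without a mismatch in Cyp4a12b and 64.4% with at most 2 mismatches. For Cyp4a32, 20.1% of the windows occur without a mismatch in Cyp4a10 or Cyp4a31, and 61.7% with at most 2 mismatches. The shares for Cyp4a10 were 12.7% and 50%, and those for Cyp4a31 were 8.22% and 27.6%. None of the windows of Cyp4a14 occurs in another member, even with 2 mismatches. None of the windows of any member occurs exactly in the transcripts of a gene outside the Cyp4a family. How the reads of 100 bases that fit more than 1 member were assigned is not given in the sources used here, so the split between Cyp4a12a and Cyp4a12b, and that among Cyp4a10, Cyp4a31, and Cyp4a32, is uncertain, whereas the level of Cyp4a14 does not depend on it.

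The 60 bases of exon 6 shown here hold 4 differences between Cyp4a12a and Cyp4a12b, in capitals below, 4 of the 23 over the whole coding sequence. They lie at chr4:115326628-115326687 in Cyp4a12a and at chr4:115432881-115432940 in Cyp4a12b, both on the plus strand.
Cyp4a12a: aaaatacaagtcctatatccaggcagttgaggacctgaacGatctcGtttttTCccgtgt
Cyp4a12b: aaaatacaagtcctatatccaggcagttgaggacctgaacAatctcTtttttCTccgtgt

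The label of the tissue was checked against markers. Of 12 hepatocyte markers, 11 were above 0, the most abundant on average was Apoa2, and their summed level lay between 43092 and 61467 FPKM in the 9 livers. Albumin (Alb) is listed at 0 in all 9 livers, so an exact 0 in these tables is not evidence that a gene is silent. Of 10 kidney markers 5 are listed at 0 in every liver, with the same limit, and the summed level of all 10 was at most 0.0715 FPKM. The other protein-coding gene of the cluster, Cyp4a30b, is listed at 0 in all 9 livers, as is Cyp4x1 outside the cluster, and Cyp4a29, not among the listed names, was above 0 only in HFD mouse 3.

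**Figure D2:**
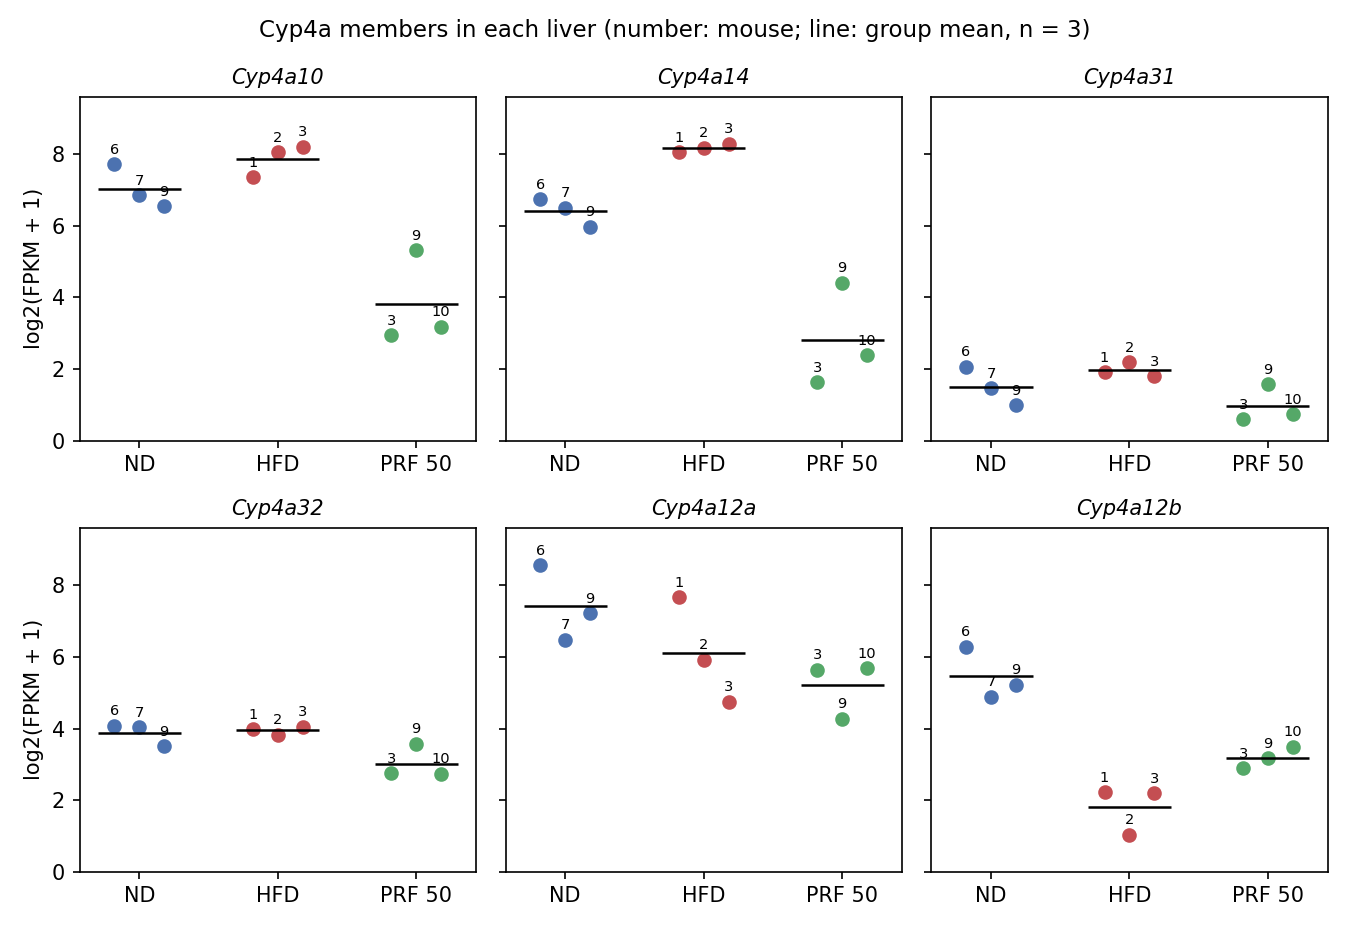
Each point is the log2(FPKM + 1) of 1 liver, labelled with its mouse number, for the member named above the panel, and lines are group means of 3 mice. The PRF 50 livers hold the 3 lowest values of Cyp4a10 and Cyp4a14, and the HFD livers hold the 3 highest of Cyp4a14 and the 3 lowest of Cyp4a12b.

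Cyp4a14 was among the most abundant members in untreated livers. Its levels were 6.73, 6.50, and 5.97 in ND mice 6, 7, and 9. They were 8.05, 8.17, and 8.28 in HFD mice 1, 2, and 3, and 1.62, 4.41, and 2.38 in PRF 50 mice 3, 9, and 10. The 3 groups did not overlap, in the order HFD above ND above PRF 50, and PRF 50 mouse 9 stood well above the other mice of its group. The spread also differed, since the SD was 0.12 in the HFD group, where 46.3% of 10048 genes varied less, and 1.44 in the PRF 50 group, where 99.7% of them varied less.

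Cyp4a10, with the same known role, was at 7.71, 6.85, and 6.54 in the ND mice. It was at 7.35, 8.04, and 8.19 in the HFD mice and at 2.94, 5.31, and 3.18 in the PRF 50 mice. The HFD and ND mice overlapped, since ND mouse 6 exceeded HFD mouse 1. All PRF 50 mice lay below all others, and mouse 9 was again the highest of them.

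Among the members described here, the mean levels of Cyp4a31 were the lowest in ND and PRF 50, whereas in HFD that of Cyp4a12b was lower. Cyp4a31 was at 2.06, 1.47, and 0.99 in the ND mice, 1.91, 2.19, and 1.80 in the HFD mice, and 0.60, 1.57, and 0.74 in the PRF 50 mice. The HFD mice lay above all PRF 50 mice, while the ND mice overlapped with both groups. The group means were 1.98, 2.93, and 1.06 FPKM in ND, HFD, and PRF 50, close to the minimum of the test, and how many fragments stand behind them is not known.

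Cyp4a32 was at 4.08, 4.03, and 3.50 in the ND mice. It was at 3.99, 3.83, and 4.05 in the HFD mice and at 2.76, 3.57, and 2.73 in the PRF 50 mice. The ND and HFD mice were intermixed, and only PRF 50 mouse 9 reached the range of the ND mice.

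Cyp4a12a, the main arachidonic acid omega-hydroxylase of male mice, was at 8.56, 6.47, and 7.21 in the ND mice. It was at 7.66, 5.92, and 4.74 in the HFD mice and at 5.65, 4.28, and 5.68 in the PRF 50 mice. The ND mice lay above all PRF 50 mice, and the HFD mice reached from the second highest to the second lowest of the 9 livers. With an SD of 1.47 in the HFD group, Cyp4a12a varied more between mice of 1 group than 99.8% of genes did there.

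Cyp4a12b, its near copy, was at 6.28, 4.89, and 5.23 in the ND mice. It was at 2.23, 1.04, and 2.20 in the HFD mice and at 2.89, 3.17, and 3.49 in the PRF 50 mice. The 3 groups did not overlap, and their order was ND above PRF 50 above HFD, with the HFD group lowest, unlike that of any other member.

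**Figure D3:**
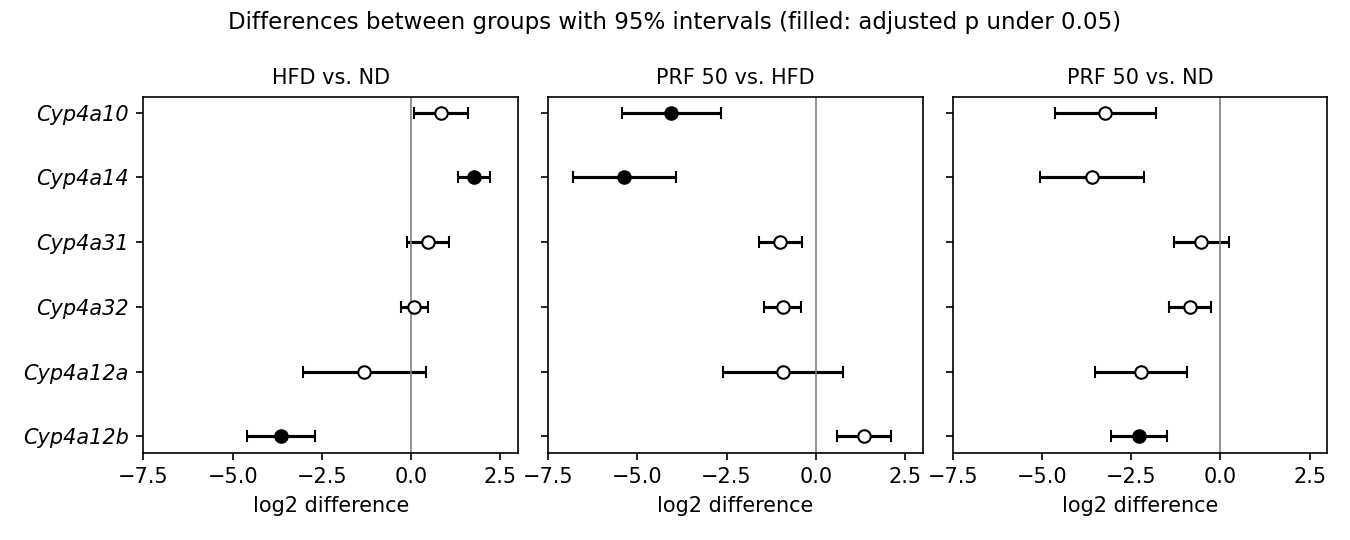
Points are the log2 differences between the groups named above each panel, bars are 95% intervals from limma (n = 3 per group), and filled points passed an adjusted p of 0.05. Cyp4a10 and Cyp4a14 lie far to the left in both comparisons of PRF 50, whereas Cyp4a12b is lowest in HFD vs. ND.

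The comparison of HFD with ND asks what the fat diet alone was accompanied by. Cyp4a14 was higher and Cyp4a12b was lower in the HFD livers, and the other 4 members did not pass the test. For Cyp4a14 the log2 difference was 1.76 (95% interval 1.32 to 2.21, standard error 0.19, limma adjusted p = 0.0077), a ratio of 3.40 on the FPKM + 1 scale. For Cyp4a12b it was -3.64 (interval -4.60 to -2.68, standard error 0.42, limma adjusted p = 0.0094), a ratio of 12.5, with every HFD mouse below every ND mouse. Among 9978 genes tested, Cyp4a12b had the 4th largest decrease and Cyp4a14 the 19th largest increase. Fitted with all 9 mice, which adds the spread of the PRF 50 mice, the difference of Cyp4a14 no longer passed (limma adjusted p = 0.165), while that of Cyp4a12b did. With no minimum level Cyp4a12b missed the threshold (limma adjusted p = 0.0505). Both passed whichever mouse was left out. The 1 member of 6 that passed as higher compares with 0.702% of all genes tested, and the 1 that passed as lower with 0.631%. Without overlap between the groups, 1 member was higher, against 10.7% of all genes, and 1 was lower, against 10% of all genes.

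In the same comparison, Cyp4a10 differed by 0.83 (interval 0.07 to 1.59, limma adjusted p = 0.296), and Cyp4a12a by -1.31 (interval -3.03 to 0.42, limma adjusted p = 0.470). Cyp4a31 differed by 0.46 (interval -0.13 to 1.05) and Cyp4a32 by 0.08 (interval -0.29 to 0.46), the narrowest interval of the 6. Leaving out single mice moved the difference of Cyp4a12a between -2.09 and -0.62 and that of Cyp4a31 between 0.20 and 0.74, and turned that of Cyp4a32 to -0.10 without ND mouse 9. The intervals of these 4 differences show that a rise of Cyp4a10 or Cyp4a31, or a fall of Cyp4a12a, by over 2-fold lies within what 3 mice per group leave possible.

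PRF 50 vs. HFD compares mice on the same diet with and without PRF. Here Cyp4a14 and Cyp4a10 fell, and they were the 2 members that passed the test. The log2 difference of Cyp4a14 was -5.36 (95% interval -6.81 to -3.91, standard error 0.62, limma adjusted p = 0.0147), a ratio of 41.1 on the FPKM + 1 scale, and that of Cyp4a10 was -4.05 (interval -5.44 to -2.66, standard error 0.59, limma adjusted p = 0.0235), a ratio of 16.6. Of 10084 genes tested, they had the 4th and 6th largest decreases. The 2 of 6 members that passed as lower compare with 2.16% of all genes tested, and the 0 members that passed as higher with 1.43%, where 1 had an unadjusted p below 0.05. Single livers decided these calls. Without HFD mouse 2 neither Cyp4a10 (limma adjusted p = 0.0804) nor Cyp4a14 (0.0567) passed, nor did they without HFD mouse 3 (0.0799 and 0.0539), although the differences stayed between -4.80 and -3.61 for Cyp4a10 and between -6.16 and -4.77 for Cyp4a14 whichever mouse was left out. Cyp4a10 also missed the threshold without PRF 50 mouse 3 (0.0611), without PRF 50 mouse 10 (0.0522), and with no minimum level (0.0578).

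Cyp4a31 and Cyp4a32 were lower by smaller amounts. Their differences were -0.99 (interval -1.59 to -0.39, limma adjusted p = 0.0866) and -0.93 (interval -1.45 to -0.41, limma adjusted p = 0.0705). The size depends on the scale for the low Cyp4a31, which differed by -1.59 with a pseudocount of 0.1, against -1.02 for Cyp4a32. Without PRF 50 mouse 9, the mouse with the highest Cyp4a10, Cyp4a14, Cyp4a31, and Cyp4a32 of its group, Cyp4a31 (-1.29, limma adjusted p = 0.0227) and Cyp4a32 (-1.21, limma adjusted p = 0.00769) passed as well. Cyp4a12b was higher in every PRF 50 mouse than in every HFD mouse, with a difference of 1.36 (interval 0.60 to 2.12, limma adjusted p = 0.0719). Cyp4a12a differed by -0.91 with a wide interval (-2.59 to 0.77, limma adjusted p = 0.539), and by -1.59 to -0.13 when single mice were left out. Thus 4 of 6 members were lower without overlap between the groups, against 15.3% of all genes tested, and 1 was higher without overlap, against 10.9%.

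PRF 50 vs. ND sets the treated mice on the fat diet against mice that never received it, so the diet and PRF cannot be told apart in it. All 6 members had lower means in PRF 50. Cyp4a12b passed the test, with a log2 difference of -2.28 (95% interval -3.07 to -1.5, standard error 0.34, limma adjusted p = 0.0441), a ratio of 4.87 on the FPKM + 1 scale. The call of Cyp4a12b was lost without ND mouse 7 (limma adjusted p = 0.0747), ND mouse 9 (0.0579), PRF 50 mouse 3 (0.137), or PRF 50 mouse 9 (0.108), and with no minimum level (0.139). The difference of Cyp4a12b stayed between -2.57 and -1.87 whichever mouse was left out. The differences of Cyp4a14 and Cyp4a10 were larger, -3.60 (interval -5.04 to -2.15) and -3.22 (interval -4.62 to -1.82), but their spread in the PRF 50 mice was larger too and their adjusted p-values from limma were 0.069 and 0.0767. Cyp4a10 (0.038) and Cyp4a14 (0.0261) passed when all 9 mice were fitted together, and also without PRF 50 mouse 9 (0.00826 and 0.00384), and Cyp4a14 passed with a minimum of 10 FPKM (0.0468). These were nevertheless the 3rd and 5th largest decreases among 10051 genes tested. Cyp4a12a differed by -2.22 (interval -3.51 to -0.92, limma adjusted p = 0.158), Cyp4a32 by -0.85 (interval -1.44 to -0.26, limma adjusted p = 0.225), and Cyp4a31 by -0.53 (interval -1.30 to 0.23, limma adjusted p = 0.535), by -0.83 to -0.26 when single mice were left out, and by -0.91 with a pseudocount of 0.1.

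The 1 of 6 members that passed as lower in this comparison is set against 0.298% of all genes tested, and the 0 that passed as higher, also 0 at an unadjusted p below 0.05, against 0.159%. Cyp4a10, Cyp4a12a, Cyp4a12b, and Cyp4a14 were lower without overlap, 4 of 6 against 11.8% of all genes, and 0 members were higher without overlap, against 8.19%. The 3 comparisons share groups, so they are not independent of each other: a high value in an HFD mouse, for example, enters the first 2 with opposite signs.

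Over all 3 groups the orders of the means were therefore HFD, ND, PRF 50 for Cyp4a10, Cyp4a14, Cyp4a31, and Cyp4a32, ND, HFD, PRF 50 for Cyp4a12a, and ND, PRF 50, HFD for Cyp4a12b. Neighbours in these orders overlapped for HFD and ND of Cyp4a10, Cyp4a31, and Cyp4a32, for ND and PRF 50 of Cyp4a31 and Cyp4a32, and for both steps of Cyp4a12a. The smallest gaps between groups that did not overlap were those between PRF 50 mouse 9 and the lowest HFD mouse, for Cyp4a31 (1.57 and 1.80) and Cyp4a32 (3.57 and 3.83).

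**Figure D4:**
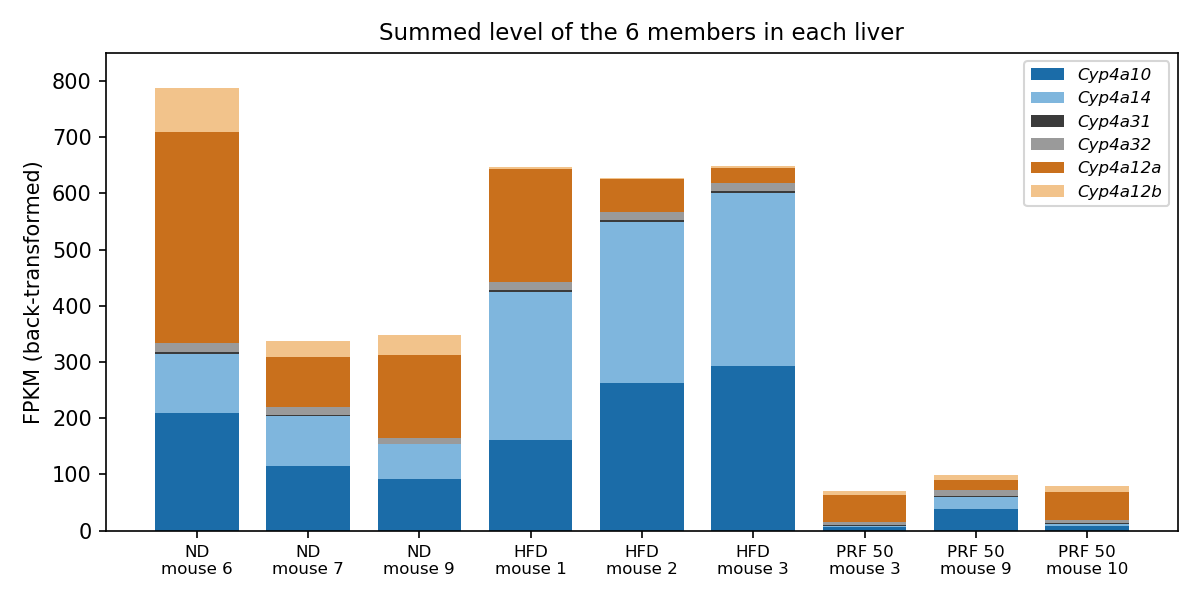
Bars are the summed FPKM of the 6 members in each liver, divided by member. The sums of the HFD livers (627 to 649 FPKM) consist mostly of Cyp4a10 and Cyp4a14, and those of the PRF 50 livers (70.5 to 98.3 FPKM) are the 3 smallest.

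Added up on the FPKM scale, the 6 members reached 787, 337, and 349 FPKM in ND mice 6, 7, and 9. They reached 648, 627, and 649 FPKM in the HFD mice and 70.5, 98.3, and 79.0 FPKM in the PRF 50 mice. The PRF 50 livers lay below all others, while the HFD livers lay within the range of the ND livers, with ND mouse 6 the highest of all. That mouse had the highest value of its group for all 6 members, together with the highest summed hepatocyte markers (61467 FPKM) and the lowest summed Kupffer cell markers (108 FPKM) of the 9 livers.

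The members had different shares of the sum. Cyp4a14 supplied 13.4%, 26.5%, and 17.7% of it in the ND livers, 40.6%, 45.8%, and 47.7% in the HFD livers, and 2.95%, 20.6%, and 5.33% in the PRF 50 livers. Cyp4a12a supplied 47.9%, 26.1%, and 42.3% in the ND livers, 31.1%, 9.49%, and 3.97% in the HFD livers, and 69.6%, 18.7%, and 63.5% in the PRF 50 livers. Thus Cyp4a14 was the largest part in all HFD livers, Cyp4a12a was the largest in ND mice 6 and 9 and in PRF 50 mice 3 and 10, and Cyp4a10 was the largest in ND mouse 7 and PRF 50 mouse 9. Cyp4a31 supplied at most 2.01% and Cyp4a32 at most 11.1%, both in PRF 50 mouse 9.

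The pairs of members with like roles differed in their ratios as well. The FPKM ratio of Cyp4a14 to Cyp4a10 was 0.504, 0.785, and 0.673 in the ND livers, 1.63, 1.09, and 1.06 in the HFD livers, and 0.312, 0.522, and 0.521 in the PRF 50 livers. It was above 1 in all HFD livers and below 1 in the rest. The part of Cyp4a12b in the sum of Cyp4a12a and Cyp4a12b was 17.0%, 24.5%, and 19.8% in the ND livers, 1.79%, 1.75%, and 12.2% in the HFD livers, and 11.6%, 30.2%, and 17.0% in the PRF 50 livers. HFD mouse 3, with the lowest Cyp4a12a of its group, therefore overlapped with PRF 50 mouse 3 in this ratio, and no test was made of it. The sum of the pair was 454, 116, and 184 FPKM in the ND livers, 205, 60.6, and 29.4 FPKM in the HFD livers, and 55.5, 26.4, and 60.4 FPKM in the PRF 50 livers. It was lower in every PRF 50 liver than in every ND liver, and the HFD livers overlapped with both.

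Among the 10048 genes whose mean reached 1 FPKM, the patterns of Cyp4a10 and Cyp4a14 over the 9 livers were most like each other, with a mean absolute distance of 0.52 on the log2 scale after each gene's own mean was subtracted. The next for both were the acyl-CoA thioesterases Acot1 and Acot3, at distances of 0.72 and 0.73 from Cyp4a10 and of 1.04 and 0.64 from Cyp4a14. Nearest to Cyp4a31 were Cyp4a32 (0.21), Cyp46a1 (0.22), and the monoacylglycerol lipase Mgll (0.22), and nearest to Cyp4a32 were Them7 (0.19), the lipase Lipg (0.19), and the peroxisomal enzyme Ehhadh (0.20). The closeness of Cyp4a31 and Cyp4a32 may carry shared reads. Cyp4a12a was nearest to Cml5 (0.54), to Cish (0.63), an inhibitor of cytokine signaling induced by growth hormone, and to the transporter Slco1a4 (0.65). Cyp4a12b was nearest to the retinoic acid hydroxylase Cyp26a1 (0.54), the carboxylesterase Ces2a (0.61), and Plk3 (0.74), and Cyp4a12a held only the 82nd place of likeness to it.

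None of the tested genes beside the cluster passed. Cyp4b1, which lies next to Cyp4a32, differed by -0.81, 0.67, and -0.13 in HFD vs. ND, PRF 50 vs. HFD, and PRF 50 vs. ND (adjusted p = 0.340, 0.396, and 0.858 from limma). Cyp4b1 was at 1.03 in HFD mouse 1, against 2.38 and 2.32 in HFD mice 2 and 3. The sizes of its differences that involve HFD therefore depend on that mouse. Pdzk1ip1, farther off on the side of Cyp4a12a, differed by -0.78, 0.59, and -0.19 (adjusted p = 0.102, 0.0551, and 0.727 from limma). Efcab14 (0.19 and -0.06), Atpaf1 (0.17 and -0.14), Mob3c (0.03 and -0.12), and Mknk1 (-0.12 and 0.16) differed less in HFD vs. ND and PRF 50 vs. HFD. Other Cyp4 genes outside the Cyp4a family also did not pass: of 6 tested in each comparison, 0 were called in any, with 1, 1, and 0 genes at an unadjusted p below 0.05 from limma in HFD vs. ND, PRF 50 vs. HFD, and PRF 50 vs. ND. Their median differences were -0.29, 0.07, and -0.12. The leukotriene omega-hydroxylase Cyp4f14 was the nearest to a call in PRF 50 vs. HFD, at 0.56 (limma adjusted p = 0.165).

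Electrons reach the CYP4A enzymes from Por, the P450 reductase, and from cytochrome b5. Of the 4 genes for this transfer, 0 were called in any comparison, and 0, 1, and 1 had an unadjusted p below 0.05 from limma in HFD vs. ND, PRF 50 vs. HFD, and PRF 50 vs. ND. Por differed by 0.24 and -0.07 in HFD vs. ND and PRF 50 vs. HFD.

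The dehydrogenases that follow the hydroxylase moved in part. Aldh3a2, the fatty aldehyde dehydrogenase and itself a PPARα target, was at 7.09, 6.97, and 6.80 in the ND mice, 7.60, 7.81, and 8.14 in the HFD mice, and 6.31, 6.69, and 6.24 in the PRF 50 mice. The 3 groups did not overlap, in the order HFD, ND, PRF 50 that Cyp4a14 also showed. Aldh3a2 rose by 0.90 in HFD vs. ND (limma adjusted p = 0.0452) and fell by 1.44 in PRF 50 vs. HFD (limma adjusted p = 0.015). It was the 1 of 8 tested genes of this step that passed in HFD vs. ND, and when a mouse was left out 1 gene of the step passed without HFD mouse 1 and 0 without each of the others. In PRF 50 vs. HFD, 2 of 9 passed as lower, the other being the retinal dehydrogenase Aldh1a1 (-0.89, limma adjusted p = 0.0335), with 0 to 1 calls when a mouse was left out, and 0 of 9 passed in PRF 50 vs. ND, with 2 at an unadjusted p below 0.05. The alcohol dehydrogenases Adh1 (0.16 and -0.28), Adh4 (0.03 and 0.09), Adh5 (-0.05 and -0.08), and Adh7 (-0.25 and -0.01) did not pass in HFD vs. ND or PRF 50 vs. HFD.

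Of 22 genes for the peroxisomal oxidation of dicarboxylic acids, 4 passed as higher in HFD vs. ND, 9 passed as lower in PRF 50 vs. HFD, and 2 passed as lower in PRF 50 vs. ND. Leaving out each mouse in turn gave 2 to 5, 2 to 11, and 0 to 2. This check of the lists was added after the data were seen. The median differences of the 22 genes were 0.27, -0.48, and -0.23, beside -0.01, -0.02, and -0.03 over all genes tested. Acot4 (1.38, limma adjusted p = 0.00633), which hydrolyses dicarboxylyl-CoA esters, Crat (1.17), and Acot3 (2.22) were among the 4 that passed in HFD vs. ND. The smallest p in PRF 50 vs. HFD belonged to Acot3, whose levels were 5.34, 5.65, and 5.77 in the HFD mice and 1.5, 1.80, and 0.65 in the PRF 50 mice, a fall of 4.27 (limma adjusted p = 0.00162). Ehhadh, the bifunctional enzyme that acts on dicarboxylic acids, fell by 1.05 (limma adjusted p = 0.0229) in PRF 50 vs. HFD and by 1.16 (limma adjusted p = 0.0343) in PRF 50 vs. ND, but differed by -0.11 in HFD vs. ND. The nudix hydrolase Nudt7 is also in the list of male-biased liver genes described below. Nudt7 went the other way in sign, at -0.66 in HFD vs. ND and 0.50 in PRF 50 vs. HFD, without passing.

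The wider PPARα target list, which does not contain the members, holds 44 genes and shares 8 of them with the peroxisomal list. In HFD vs. ND, 9 of 43 tested passed as higher and 0 as lower, with a median difference of 0.54. From HFD to PRF 50, 26 of 43 passed as lower and 0 as higher, with a median of -0.89, and in PRF 50 vs. ND, 4 of 41 passed as lower, with a median of -0.35. These counts also depend on single livers, since leaving out each mouse in turn gave 3 to 13 as higher in HFD vs. ND, 4 to 27 as lower in PRF 50 vs. HFD (4 without HFD mouse 3), and 0 to 3 as lower in PRF 50 vs. ND. In sign, 42 of 43 were lower in PRF 50 than in HFD, as Cyp4a14 and Cyp4a10 were. Vnn1 (1.40 and -1.66), Pex11a (0.97 and -1.77), and Acot4 (1.38 and -2.23) were among those that passed in both HFD vs. ND and PRF 50 vs. HFD. Ehhadh, Acaa1b (-1.32), Cd36 (-0.78), and Txnip (-1.21) were those that passed in PRF 50 vs. ND. Angptl4, another target gene, differed by -0.37 in PRF 50 vs. HFD (limma adjusted p = 0.440), and Ucp2 by 0.58 (limma adjusted p = 0.396).

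Liver by liver, the median distance of the PPARα targets from their own means was 0.12, -0.05, and -0.16 in ND mice 6, 7, and 9, 0.39, 0.48, and 0.53 in HFD mice 1, 2, and 3, and -0.56, -0.26, and -0.44 in PRF 50 mice 3, 9, and 10. The mice stood within their groups in the order that Cyp4a14 had, in all 3 groups, with ND mouse 6, HFD mouse 3, and PRF 50 mouse 9 the highest of each. The transcript of the receptor itself, Ppara, was at 5.68, 5.50, and 5.78 in the ND mice, 6.18, 6.26, and 6.27 in the HFD mice, and 5.67, 5.99, and 5.49 in the PRF 50 mice. It was highest in the HFD group without overlap, but did not pass (0.59, adjusted p = 0.0521, and -0.52, adjusted p = 0.083, from limma in HFD vs. ND and PRF 50 vs. HFD). Of 17 genes for PPAR receptors and partners, Pparg was the 1 that passed, as lower in PRF 50 vs. HFD (-1.25, limma adjusted p = 0.0229) and in PRF 50 vs. ND (-1.12, limma adjusted p = 0.0416), and 0 passed in HFD vs. ND, where 2 had an unadjusted p below 0.05. When a mouse was left out, 0 to 2 of the list passed as lower in PRF 50 vs. HFD and 0 to 1 in PRF 50 vs. ND.

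**Figure D5:**
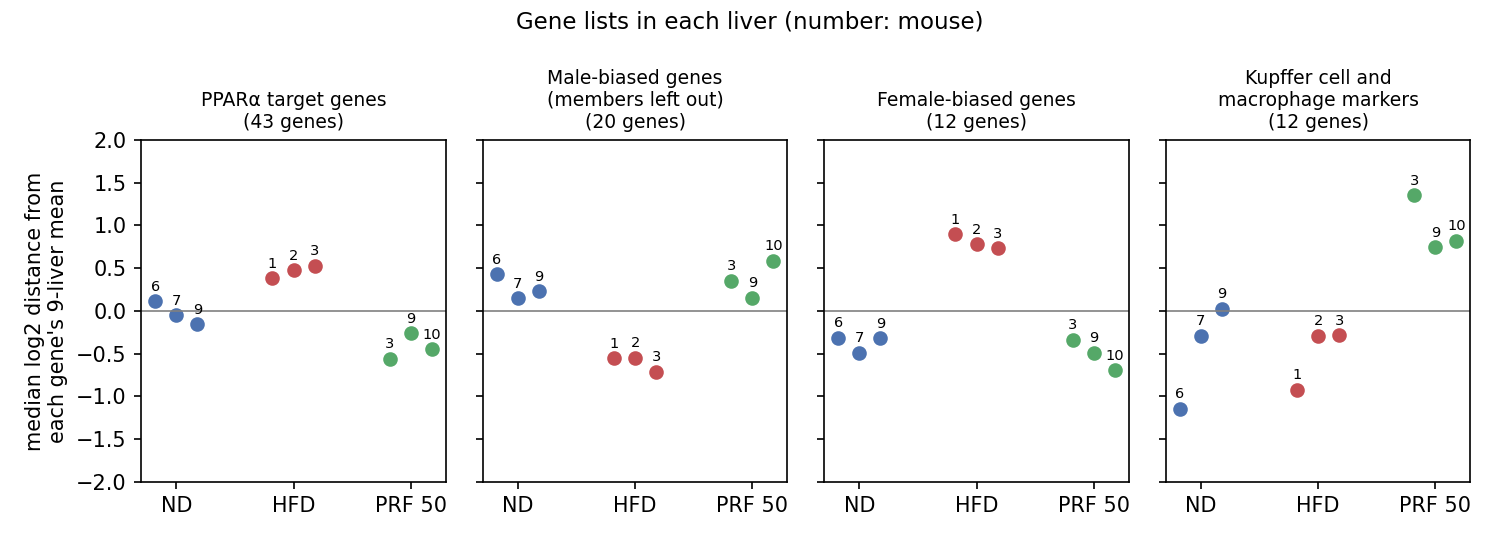
Each point is 1 liver, labelled with its mouse number, and gives the median over the genes of a list of the log2 distance from each gene's mean over the 9 livers. PPARα targets are highest in HFD (0.39 to 0.53) and lowest in PRF 50 (-0.56 to -0.26), male-biased genes are lowest in HFD (-0.71 to -0.55), and macrophage markers are highest in PRF 50 (0.75 to 1.35).

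Cyp4a12a and Cyp4a12b are part of a list of male-biased liver genes, and its other genes were counted apart. Of these, 20 were tested in HFD vs. ND and in PRF 50 vs. HFD. In HFD vs. ND, 8 passed as lower and 1 as higher, with a median difference of -0.69, and in PRF 50 vs. HFD, 10 passed as higher and 2 as lower, with a median of 1.01. Without single mice, 4 to 7 were lower in HFD vs. ND, and 2 to 8 were higher and 1 to 2 lower in PRF 50 vs. HFD. Hsd3b5, a steroid dehydrogenase of male liver, was at 7.30, 6.93, and 7.54 in the ND mice, 5.53, 4.65, and 3.57 in the HFD mice, and 7.39, 6.79, and 8.0 in the PRF 50 mice. The HFD mice lay below all others, and the ND and PRF 50 mice overlapped. In PRF 50 vs. ND, 1 of 19 passed as higher, the complement gene C6 (0 to 1 without single mice), and 0 passed as lower, with a median of 0.15 and with 4 and 3 at an unadjusted p below 0.05.

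Selenbp2 (-2.34 and 3.17), Serpina1e (-3.91 and 4.20), Egfr (-1.62 and 1.76), and Gstp1 (-1.86 and 2.10) passed in HFD vs. ND and in PRF 50 vs. HFD in opposite directions. The gene that rose in HFD vs. ND was Mup12 (5.88), one of a set of near-identical Mup genes whose reads can be shared, and its value is uncertain for that reason. Elovl3, a fatty acid elongase of male liver, passed in no comparison, with -1.18 in HFD vs. ND, -0.04 in PRF 50 vs. HFD, and -1.23 in PRF 50 vs. ND (adjusted p = 0.0506, 0.953, and 0.0949 from limma).

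The female-biased list shares Acot3 with the PPARα target list, and Abcd2 and Acot3 with the peroxisomal list. Acot3 passed in HFD vs. ND and in PRF 50 vs. HFD and is counted in each of these lists, so their counts are not separate. Of the 27 genes of the female-biased list, 13 were tested in HFD vs. ND and 12 in PRF 50 vs. HFD. In HFD vs. ND, 4 passed as higher and 0 as lower. There, 8 were higher and 2 lower at an unadjusted p below 0.05 from limma. In PRF 50 vs. HFD, 4 passed as lower and 0 as higher, with 7 lower and 0 higher at that unadjusted level. Without single mice the list had 1 to 5 calls as higher in the first comparison and 2 to 4 as lower in the second. Its largest change was that of Cyp2b9, at 5.52 in HFD vs. ND (limma adjusted p = 0.00419) and -6.00 in PRF 50 vs. HFD (limma adjusted p = 4.6e-04), while 0 of 11 genes passed in PRF 50 vs. ND, with 3 at an unadjusted p below 0.05. Of 11 tested genes of growth hormone signaling, the target genes Cish (-1.96, limma adjusted p = 0.0318) and Socs2 (-1.17, limma adjusted p = 0.0331) passed as lower in HFD vs. ND, where 0 to 1 of the list passed without single mice. In PRF 50 vs. HFD 0 of 11 passed, with 2 at an unadjusted p below 0.05, and Cish differed by 0.26 and Socs2 by 0.66. Against ND 0 of 11 passed in PRF 50, with 3 at an unadjusted p below 0.05, and Cish differed by -1.70 (limma adjusted p = 0.171). Cish, Cyp4a12a, and Elovl3 had lower means in HFD and PRF 50 than in ND, whereas the mean of Hsd3b5 was lower only in HFD. Cyp4a12a passed in no comparison. Cish is also among the genes nearest to Cyp4a12a in pattern over these same livers, so their likeness here is not separate evidence. A link between them was not tested.

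Markers of other cell types were read beside the members. In bulk tissue, fewer cells of a type and less RNA per cell cannot be told apart. Of 12 Kupffer cell and macrophage markers, 10 passed as higher in PRF 50 vs. HFD, with a median difference of 1.43, and none is listed at 0. Without HFD mouse 3 0 of them passed, without HFD mouse 2 or PRF 50 mouse 3 only 1, and at most 10. All 12 were higher without overlap between the groups, against 10.9% of all genes tested. Their summed level was 108, 203, and 266 FPKM in the ND mice, 138, 222, and 221 FPKM in the HFD mice, and 751, 425, and 488 FPKM in the PRF 50 mice, and the most abundant on average was Cd5l (77.3 to 129 FPKM in PRF 50), close to Lyz2. PRF 50 mouse 9, which had the highest Cyp4a10 and Cyp4a14 of its group, had the lowest sum of its group. The HFD group went the other way, since HFD mouse 1 had the lowest sum and also the lowest Cyp4a10 and Cyp4a14 of its group. Of the 12, 0 passed in PRF 50 vs. ND, with all 12 higher at an unadjusted p below 0.05 and a median of 1.40, and in HFD vs. ND 0 passed, with 0 at an unadjusted p below 0.05. The part of this difference in the levels of the members was not tested.

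Hepatocyte markers themselves did not pass in any comparison (0 of 11 tested). At an unadjusted p below 0.05 from limma, 3 were lower in HFD vs. ND. At that level 1 was higher and 2 were lower in PRF 50 vs. HFD, and 0 differed in PRF 50 vs. ND. Their median differences were -0.28, 0.38, and 0.01 in HFD vs. ND, PRF 50 vs. HFD, and PRF 50 vs. ND. In sign, 7 were lower and 4 higher in HFD vs. ND, and 8 were higher and 3 lower in PRF 50 vs. HFD. Their summed level was 57079, 50438, and 45023 FPKM in the HFD mice and 51688, 48662, and 49476 FPKM in the PRF 50 mice, ranges that overlap. Cyp4a genes are found mainly around the central vein, and of 12 pericentral markers 0 passed in any comparison, with 3, 3, and 2 at an unadjusted p below 0.05. The most abundant pericentral marker on average was Cyp2e1, and the sum of the 12 was 7505, 6304, and 7527 FPKM in the HFD mice and 6242, 6712, and 6753 FPKM in the PRF 50 mice. Of 12 periportal markers, Cdh1 alone passed, as higher in PRF 50 vs. HFD, with 0 to 2 calls in the list without single mice. At an unadjusted p below 0.05, 6 periportal markers were lower and 2 higher in HFD vs. ND, 3 were higher in PRF 50 vs. HFD, and 2 were higher and 1 lower in PRF 50 vs. ND, with medians of -0.34, 0.28, and 0.07.

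Of 5 tested adipocyte markers, Plin4 passed as higher in HFD vs. ND, and Plin4 and Car3, which liver cells also express, passed as lower in PRF 50 vs. HFD. Car3 passed as lower in PRF 50 vs. ND too, 1 of 3 tested there. Without single mice the list had 0 to 2, 0 to 3, and 0 to 1 such calls in HFD vs. ND, PRF 50 vs. HFD, and PRF 50 vs. ND. Lep and Plin1 are listed at 0 in all livers, and the sum of the markers, nearly all of it Car3, was 2521, 2090, and 1829 FPKM in the ND mice, 2276, 1766, and 2457 FPKM in the HFD mice, and 807, 853, and 896 FPKM in the PRF 50 mice. Markers at low levels differed within the HFD group, where Cfd was at 0.583, 6.29, and 13.4 FPKM in mice 1, 2, and 3, and Adipoq was above 0 only in mice 2 and 3 (0.277 and 0.101 FPKM) of all 9 livers. Leaving out either of these 2 mice ended the calls of both Cyp4a10 and Cyp4a14 in PRF 50 vs. HFD. Over all genes tested, those called lower in that comparison then fell from 218 to 21 without HFD mouse 2 and to 11 without HFD mouse 3. The call of Cyp4a10 was also lost without PRF 50 mouse 3 or PRF 50 mouse 10. The part of these markers in the calls was not tested. Markers of endothelial cells (10 tested), stellate cells (9, 9, and 8 tested), and cholangiocytes (1, 1, and 2 tested) had 0 calls in HFD vs. ND, PRF 50 vs. HFD, and PRF 50 vs. ND. At an unadjusted p below 0.05, limma gave 2, 1, and 0 endothelial, 2, 2, and 0 stellate, and 0, 0, and 1 cholangiocyte markers. The medians were -0.52, 0.48, and -0.17 for endothelial markers. Of these, 9 of 10 were lower in HFD vs. ND and 8 of 10 higher in PRF 50 vs. HFD. In HFD mouse 1 their median distance from their own means was -1.04, against -0.18 and 0.02 in HFD mice 2 and 3. For stellate markers the medians were 0.29, 0.14, and 0.44. Of the stellate markers, 8 of 9 were higher in HFD vs. ND, 6 of 9 in PRF 50 vs. HFD, and 8 of 8 in PRF 50 vs. ND.

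A promoter sequence was at hand for 1 of the 6 members, Cyp4a32, from RefSeq on GRCm38.p6. Its 250 bases before the start annotated there, at chr4:115600688-115600937 on the plus strand, are shown as the only promoter at hand, with the match to the TATA motif in capitals.
Cyp4a32: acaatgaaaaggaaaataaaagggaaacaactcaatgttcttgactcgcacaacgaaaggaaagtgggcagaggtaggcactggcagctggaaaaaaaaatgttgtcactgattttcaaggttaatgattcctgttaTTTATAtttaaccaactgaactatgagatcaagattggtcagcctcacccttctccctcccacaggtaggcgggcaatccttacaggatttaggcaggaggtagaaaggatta
The TATA motif TATAAA lies on the other strand, 113 bases before the start annotated there. Of 32851 promoter windows of 300 bases, 13.6% hold it on either strand. The window holds no nuclear receptor site AGGTCA, which 16.3% of all windows hold, and no direct repeat of it with 1 base between, AGGTCANAGGTCA, which 13 windows hold. It also holds no match to TTCNNNGAA, the STAT5 motif, found in 8.30% of windows. These absences say only that the letters are not in this window. Of 35 genes of the PPARα target list with a promoter in the table, 10 held AGGTCA, and Fabp1 alone held the direct repeat when any base was allowed at the 4th position of each copy. Here a gene counted if any of its windows held the motif, so these counts cannot be set beside the shares of windows above.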

How the data were processed

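The 9 mice were grouped by the sample labels. The authors selected poly(A) RNA, used FASTX_Trimmer and BBMap to trim the paired reads of 100 bases, TopHat to map them to mm10, and Cufflinks to estimate FPKM. The authors state that a geometric normalization was made with edgeR. Versions of these tools and the gene annotation are not given in the sources used here. The authors deposited 1 log2 value per gene symbol and mouse, read here as log2(FPKM + 1). The 1 is inferred from a lowest value of 0 and would shift low genes most if it were wrong. On this scale low genes show smaller fold changes than they have in FPKM.

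Groups were compared with limma (version 3.58.1, with a trend) in R (version 4.3.3), on the 6 mice of each comparison and the genes whose mean in them reached 1 FPKM. Benjamini-Hochberg adjustment ran over all genes tested, and a gene passed (was called) at an adjusted p under 0.05. Every p-value is from limma and two-sided. The fit was tested on simulated data. Members and gene lists were chosen with earlier results of these data known, and lists were counted without a test of the list. The text names the 6 members, listed genes with the smallest p or a role in omega-oxidation, cluster neighbours, and the 3 genes most like each member. Angptl4, Ucp2, Nudt7, and Elovl3, which did not follow their list, and Hsd3b5, Pex11a, Egfr, and Gstp1, which did, were chosen after their values were seen, as were genes named to spell out a count of 5 or fewer. Read counts were not used, so the depth is unknown, and depths relative to HFD mouse 1, from the steps between low values, lay between 0.966 and 1.60. HFD mouse 2 had an Rnu6 value of 22.44, far above any other gene. Coding sequences and positions came from GENCODE M21 (GRCm38), were translated and aligned with Biopython (version 1.88), and promoters came from RefSeq (GRCm38.p6).
The alternatives were 1 fit of all 9 mice, fits without each single mouse, other minimum levels (none or 10 FPKM), a pseudocount of 0.1, quantile normalization, median-of-ratios scaling, limma with no trend, and a call by fold change above 2 with unadjusted p under 0.05.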

Additional observations from a re-analysis of the deposited data

How the results depend on the processing

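With all 9 mice in 1 fit, 0 members were called higher in HFD vs. ND, and in PRF 50 vs. ND 50 genes were called higher, 52 genes lower, and 3 members lower. With no minimum level, HFD vs. ND had 22 genes higher, 15 genes lower, and 0 members lower, PRF 50 vs. HFD had 38 genes higher, 88 genes lower, and 1 member lower, and PRF 50 vs. ND had 2 genes higher, 9 genes lower, and 0 members lower. With a minimum of 10 FPKM, 46 genes were higher in HFD vs. ND, 49 in PRF 50 vs. HFD, and 8 in PRF 50 vs. ND, where 2 members were lower; Cyp4a31 was not tested there in any comparison, nor Cyp4a12b in PRF 50 vs. HFD. With quantile normalization 132 genes were lower in PRF 50 vs. HFD. By unadjusted p with a fold change above 2, PRF 50 vs. HFD had 1 member higher and 105 genes lower, and PRF 50 vs. ND had 105 genes higher, 72 genes lower, and 4 members lower. Leaving out each mouse in turn gave 17 to 80 genes higher and 17 to 60 genes lower in HFD vs. ND, where Cyp4a32 differed by -0.10 to 0.19, the opposite sign coming without ND mouse 9. It gave 4 to 94 genes higher, 11 to 148 genes lower, and 0 to 4 members lower in PRF 50 vs. HFD, and 1 to 39 genes higher, 3 to 36 genes lower, and 0 to 2 members lower in PRF 50 vs. ND. The other alternatives kept every call of a member. No paired analysis was possible because the mice of different groups are different animals, and HFD and PRF 50 share only the number 3, ND and PRF 50 only the number 9, and ND and HFD none. With 3 mice per group, the calls of Cyp4a10 and Cyp4a14 in PRF 50 vs. HFD and of Cyp4a12b in PRF 50 vs. ND depend on single livers. The counts of the gene lists depend on single livers in the same way. Macrophage markers were higher in PRF 50, and the cause was not tested. The split of reads between near-identical members, the read depth, and the annotation are not known, and protein levels and enzyme activity were not measured in these data.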
